A study of Mus musculus with 6 samples.

Results

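Neuropeptides are made from larger precursor proteins, and several precursor genes mark classes of striatal neuron. The 9 genes described here encode such precursors: Penk, Pdyn, Tac1, Npy, Sst, Cck, Cartpt, Nts and Vip. They were chosen by gene symbol, as peptide precursors of striatal projection neurons and interneurons, out of 29659 genes in the deposited table. All 9 were found, each once. RNA had been sequenced from the lateral ganglionic eminence (LGE), the embryonic ventral forebrain region whose progenitors give rise to striatal projection neurons, of C57BL/6 mice at embryonic day 16.5. The control group (3 libraries) had the genotype Dlx5/6-Cre. The Zfhx3-CKO group (3 libraries) had the genotype Dlx5/6-Cre; Zfhx3F/F, so that both groups carried the Cre transgene and only the second carried floxed copies of Zfhx3, whose product is a transcription factor with zinc fingers and homeodomains. Cre under Dlx5/6 sequences acts in cells of the ganglionic eminences, so cells from elsewhere in a dissected piece keep Zfhx3.

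A precursor enters the secretory pathway, is packed into dense-core granules, and is cut by prohormone convertases and trimmed by carboxypeptidase before the peptides are released and act on G protein-coupled receptors. In the mature striatum, projection neurons with the dopamine D1 receptor make dynorphin and substance P, from Pdyn and Tac1. Projection neurons with the dopamine D2 receptor make enkephalin, from Penk. Npy and Sst are made together by a class of interneurons that comes from the medial ganglionic eminence (MGE), the neighbour of the LGE.

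Control libraries totalled 15938590 to 16753355 counts each, and Zfhx3-CKO libraries 18960574 to 20311799. Zfhx3 itself (ENSMUSG00000038872, chromosome 8, 107942644 to 108961630, plus strand, GRCm38) stood at 134, 135 and 101 CPM (counts per library total, scaled to a common depth) in control libraries 1 to 3, against 98.7, 87.3 and 99.3 CPM in Zfhx3-CKO libraries 1 to 3. The groups did not overlap, but the log2 fold change of -0.37 (SE 0.12) missed the threshold (adjusted p = 0.0911, edgeR's quasi-likelihood test with Benjamini-Hochberg adjustment over 16551 tested genes). It passed without control library 3, the control with the lowest Zfhx3 (-0.50, adjusted p = 0.0259, edgeR). It did not pass with any other single library left out (adjusted p = 0.0710 to 0.290, edgeR). Counts over the whole gene can include transcripts that lack a deleted part, so they are a limited check of the genotype. Xist had 5 to 9 counts in the control libraries and 55947 to 59631 in the Zfhx3-CKO libraries, and 4 Y-linked genes together had 4939 to 5451 and 5 to 8, so sex and genotype cannot be told apart in any value given here. The labels do not state that each library is a different animal, so the p-values reflect library-to-library spread that may be technical. Of 13 genes of striatal neurons all were tested and 6 were called lower, Bcl11b, Gad2, Foxp1, Foxp2, Rarb and Ikzf1. Of 11 hypothalamic and diencephalic genes found, 10 lay under 1 CPM in all 6 libraries. All 8 genes of the amygdala and septum were tested, and edgeR called 3 higher and 1 lower, against 7.35% of all tested genes. They summed to 660 to 706 CPM among the controls and 655 to 764 CPM among the Zfhx3-CKO libraries. The part of their cells in the precursor values was not tested. In bulk RNA, fewer cells of a type and less RNA per cell cannot be told apart.

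Of the 9 precursor genes, 6 had enough counts to be tested, namely Penk, Pdyn, Tac1, Npy, Sst and Nts. Penk was called higher in the Zfhx3-CKO libraries, 0 were called lower by edgeR, DESeq2 or at an unadjusted p under 0.05, and 5 did not pass (1 of 6, where 7.35% of all tested genes were called, 3.87% as higher and 3.48% as lower). The median log2 fold change of the 6 was 0.09, against 0.00117 over all tested genes. Penk and Sst were the 2 members whose groups did not overlap in CPM, a pattern that 31.4% of all tested genes showed. Cck, Cartpt and Vip were left out of the test for low counts.

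**Figure D1:**
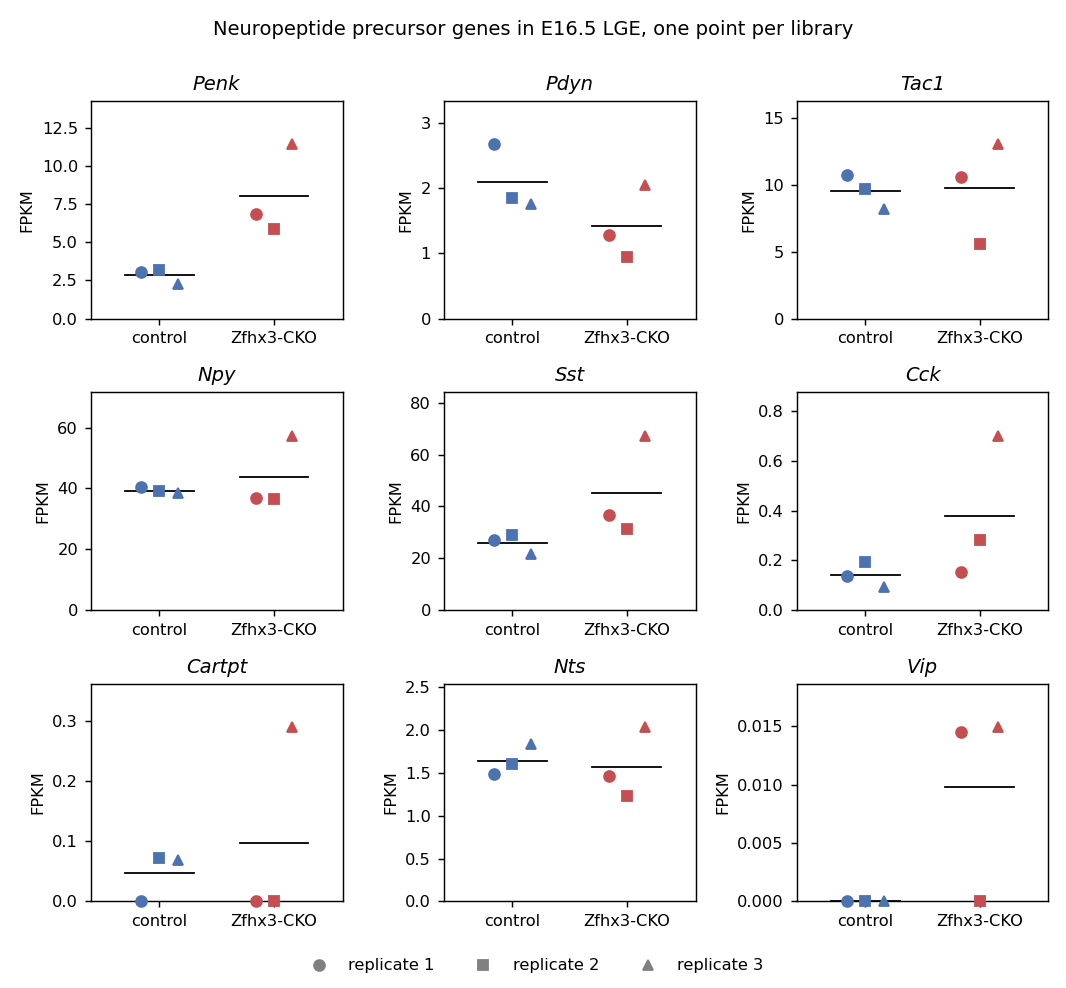
FPKM (fragments scaled by transcript length and library depth, as deposited by the authors) of the 9 precursor genes, 1 point per library and a line at each group mean; each panel has its own vertical axis from 0. All 3 Zfhx3-CKO points of Penk (5.87 to 11.4) lie above its control points (2.29 to 3.19), and Zfhx3-CKO library 3 is the highest of the 6 for Penk, Tac1, Npy, Sst and Nts.

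The enkephalin precursor Penk (ENSMUSG00000045573, chromosome 4, 4133531 to 4138819, minus strand, GRCm38) was measured at 3.03, 3.19 and 2.29 FPKM in control libraries 1 to 3 and at 6.87, 5.87 and 11.4 FPKM in Zfhx3-CKO libraries 1 to 3. The lowest Zfhx3-CKO library thus stood well above the highest control library, and library 3 of that group exceeded its fellows by more than the whole control spread. Penk rose 2.85-fold, or by 1.51 on the log2 scale (SE 0.27, adjusted p = 0.0157 in edgeR's quasi-likelihood test). An exact permutation test of its CPM (two-sided) gave p = 0.1, the lowest that 3 libraries against 3 can reach. The counts behind this were 62 to 83 reads per control library and 182 to 367 per Zfhx3-CKO library. The direction held in all 18 alternative fits (log2 fold change 1.06 to 1.70). The call was kept in 12 of 18. Among the fits that lost it were those without control library 1, 2 or 3 (adjusted p = 0.0824, 0.0681 and 0.0627), with a 2-fold threshold, and on unfiltered FPKM. The authors' deposited table marks Penk as significant, at 1.10 on the log2 scale (adjusted p 1.87e-06). The gene's span overlaps the processed transcript A830012C17Rik on the opposite strand, which held 0 to 2 counts per library.

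Beside Penk, 5 of 7 tested genes of D2-type projection neurons were called higher (Drd2, Adora2a, Sp9, Six3 and Grik3). The adenosine receptor gene Adora2a, which adult striatal enkephalin neurons also express, stood at 36.1, 32.3 and 29.4 CPM among the controls against 70.4, 58.6 and 82.4 CPM among the Zfhx3-CKO libraries (log2 fold change 1.11, SE 0.13, adjusted p = 0.00325). The summed level of the D2 list ranged from 668 to 696 CPM in the control group, and from 1132 to 1167 CPM in the Zfhx3-CKO group. The 3 Zfhx3-CKO libraries lay close to each other on this sum, to which abundant genes contribute most. Their Penk values differed by close to the size of the group difference itself. The list's median log2 difference from the control mean was 0.63, 0.55 and 0.74 in Zfhx3-CKO libraries 1 to 3. It was thus lowest in library 2 and highest in library 3, the order also seen for Penk and Adora2a. The part of these genes' cells in the Penk difference was not tested.

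Dynorphin and substance P come from the D1-type counterparts of those neurons. Pdyn (ENSMUSG00000027400, chromosome 2, 129686565 to 129699844, minus strand) had 2.67, 1.85 and 1.75 FPKM in control libraries 1 to 3 and 1.28, 0.950 and 2.04 FPKM in Zfhx3-CKO libraries 1 to 3. Zfhx3-CKO libraries 1 and 2 were below every control library and library 3 lay within the control range. The log2 fold change of -0.55 (SE 0.30) did not pass (adjusted p = 0.290, edgeR), and the exact permutation test of CPM gave p = 0.3. It was negative in all 18 alternatives (-1.13 to -0.32), with the lowest adjusted p at 0.0511, without Zfhx3-CKO library 3 (-0.90).

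Tac1 (ENSMUSG00000061762, chromosome 6, 7554879 to 7565834, plus strand), the precursor of substance P and neurokinin A, was measured at 10.8, 9.73 and 8.23 FPKM in control libraries 1 to 3 and at 10.6, 5.62 and 13.0 FPKM in Zfhx3-CKO libraries 1 to 3. Library 2 of the Zfhx3-CKO group was the lowest of the 6 and library 3 the highest, so that the group spanned the controls on both sides. The means were 9.57 ± 1.27 and 9.75 ± 3.78 FPKM (SD, n = 3 each), and the log2 fold change was 0.03 (SE 0.26, adjusted p = 0.959, edgeR). Its sign is not settled by these libraries, being negative in 8 of 18 alternatives. With Zfhx3-CKO library 2 as the only library of its group, assumed to vary like the controls, Tac1 was called lower (-0.76, adjusted p = 0.0235).

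Of the 9 tested genes of D1-type neurons, 3 were called lower, Ebf1 and Isl1 among them, and 0 higher by edgeR or DESeq2. Their summed level was 709 to 889 CPM among the controls against 340 to 473 CPM among the Zfhx3-CKO libraries. Measured as the median log2 difference from the control mean, the D1 list stood at -0.61, -0.71 and -0.15 in Zfhx3-CKO libraries 1 to 3. Pdyn stood at -0.67, -1.07 and 0.01 and Tac1 at 0.15, -0.75 and 0.47 on the same log2 scale. The list and both genes were lowest in library 2 and highest in library 3 of that group.

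Sst and Npy were the most abundant precursors of the 9. Somatostatin's gene, Sst (ENSMUSG00000004366, chromosome 16, 23889581 to 23890844, minus strand), had 27.2, 28.9 and 21.7 FPKM in control libraries 1 to 3 and 36.7, 31.2 and 67.3 FPKM in Zfhx3-CKO libraries 1 to 3. All 3 Zfhx3-CKO values were above the controls, library 2 by the least and library 3 by the most. The log2 fold change was 0.80 (SE 0.28) and did not pass (adjusted p = 0.115, edgeR's quasi-likelihood test; unadjusted p = 0.0188; exact permutation p = 0.1). It passed with DESeq2 (0.81, adjusted p = 0.0219), with no low-count filter (0.81, adjusted p = 0.0182) and without Zfhx3-CKO library 2 (1.01, adjusted p = 0.0362), and it was 0.39 without library 3 (adjusted p = 0.124). In the authors' deposited table Sst stands at 0.61 on the log2 scale (adjusted p 0.0175) and is not marked as significant.

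Sst is a classical target of cyclic AMP signalling through the cyclic AMP response element (CRE), and its promoter is shown for that element next to that of Cartpt, the other member that holds one. RefSeq promoters (GRCm38.p6) were matched for 8 of the 9 members; Penk has no entry. The palindrome TGACGTCA was found within 250 bases before the start site in 2 members, Sst and Cartpt, and in 1.55% of all 32851 promoter windows. The shorter element TGACG, searched on both strands and also counted inside the full element, was found in 6 members and in 17.8% of all windows. The 150 bases before each start site are given on the gene's strand, minus in both cases, with the CRE in capitals (first base 48 bases before the start site in Sst and 112 in Cartpt).
Sst, chr16:23890845-23890994: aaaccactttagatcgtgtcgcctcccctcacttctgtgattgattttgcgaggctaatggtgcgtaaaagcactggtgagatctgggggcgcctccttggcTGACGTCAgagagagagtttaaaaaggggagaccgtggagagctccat
Cartpt, chr13:99900684-99900833: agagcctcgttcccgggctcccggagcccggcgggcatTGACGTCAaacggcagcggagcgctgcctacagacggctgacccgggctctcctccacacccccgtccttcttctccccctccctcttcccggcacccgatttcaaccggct
These genes with the same 8 letters stood far apart in level, with Sst at 26.0 FPKM and Cartpt at 0.0469 FPKM in the control group. A match to letters is a description of the sequence and says nothing of occupancy.

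Npy (ENSMUSG00000029819, chromosome 6, 49822710 to 49829507, plus strand), the precursor of neuropeptide Y, was the steadiest member among the controls, at 40.4, 39.1 and 38.3 FPKM, and stood at 37.0, 36.5 and 57.3 FPKM in Zfhx3-CKO libraries 1 to 3. Libraries 1 and 2 of the Zfhx3-CKO group were slightly below all controls and library 3 was above them. The log2 fold change of 0.16 (SE 0.18) did not pass (adjusted p = 0.629, edgeR), and without library 3 it was -0.10. Npy and Sst therefore shared their highest library, while the ratio of Npy to Sst lay below the control range in every Zfhx3-CKO library.

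Of 13 genes of MGE-derived interneurons and their progenitors, Nkx2-1 and Lhx8 were called higher, the chemokine receptor gene Cxcr4 was called lower, and 10 did not pass. Nkx2-1, the transcription factor that specifies the MGE, stood at 68.0, 74.8 and 87.5 CPM among the controls against 99.6, 164 and 167 CPM among the Zfhx3-CKO libraries (log2 fold change 0.90, SE 0.19, adjusted p = 0.0276). Its lowest Zfhx3-CKO library was library 1, unlike that of Sst and Npy. Lhx8, by contrast, had the library profile nearest to that of Penk. The list's median log2 difference from the control mean was 0.05, 0.06 and 0.26 in Zfhx3-CKO libraries 1 to 3, highest in library 3 as for Sst and Npy. Lhx6, a factor that migrating MGE interneurons keep, stood at 157, 181 and 176 CPM in control libraries 1 to 3. It stood at 163, 220 and 209 CPM in Zfhx3-CKO libraries 1 to 3 (log2 fold change 0.20, adjusted p = 0.303, edgeR). The summed level of the list was 849 to 884 CPM among the controls against 862 to 1076 CPM among the Zfhx3-CKO libraries, and its part in the Sst and Npy values was not tested.

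Nts (ENSMUSG00000019890, chromosome 10, 102481756 to 102490486, minus strand), the neurotensin precursor, had 1.48, 1.61 and 1.84 FPKM in control libraries 1 to 3 and 1.46, 1.23 and 2.03 FPKM in Zfhx3-CKO libraries 1 to 3, from 29 to 50 counts per library. The groups overlapped, and the log2 fold change was -0.06 (SE 0.26, adjusted p = 0.920, edgeR).

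Cck, Cartpt and Vip were barely detected. Cck (ENSMUSG00000032532, chromosome 9, 121489824 to 121495694, minus strand), the cholecystokinin precursor of cortical neurons and some interneurons, had 3, 4 and 2 counts in control libraries 1 to 3 and 4, 7 and 18 in Zfhx3-CKO libraries 1 to 3. Most of the Zfhx3-CKO counts came from library 3. Per unit of depth the summed counts of 9 and 29 gave a ratio of 2.69 (exact 95% interval 1.24 to 6.47, counting error only), and a fit with no low-count filter gave an adjusted p of 0.288 (edgeR). Cartpt (ENSMUSG00000021647, chromosome 13, 99898484 to 99900683, minus strand), the precursor of the CART peptides, had 0, 1 and 1 counts and then 0, 0 and 5, a ratio of 2.09 with an interval of 0.342 to 21.9. Vip (ENSMUSG00000019772, chromosome 10, 5639218 to 5647617, plus strand), which marks interneurons from the caudal ganglionic eminence (CGE), had 0, 0 and 0 counts and then 1, 0 and 1. A count of 0 over the 3 control libraries allows up to 0.0609 CPM. No difference in Cartpt or Vip was detectable at this depth. Other genes that mark CGE interneurons were present. Of 9 such genes 0 were called by edgeR or DESeq2 (1, Prox1, had an unadjusted p under 0.05), and Nr2f1, Reln, Prox1 and Adarb2 had the highest means, from 38.2 CPM (Adarb2) to 82.3 CPM (Reln) in the control group.

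Levels can be compared between genes in FPKM, which is scaled by length. In the control group the order of means was Npy (39.3 FPKM), Sst (26.0), Tac1 (9.57), Penk (2.84), Pdyn (2.09), Nts (1.64), Cck (0.141), Cartpt (0.0469) and Vip (0). Neighbours whose library ranges overlapped were Penk and Pdyn, Pdyn and Nts, and Cartpt and Vip. The Zfhx3-CKO order was Sst (45.0 FPKM), Npy (43.6), Tac1 (9.75), Penk (8.05), Nts (1.57), Pdyn (1.42), Cck (0.378), Cartpt (0.0968) and Vip (0.0098). There the overlapping neighbours were Sst and Npy, Tac1 and Penk, Nts and Pdyn, Cck and Cartpt, and Cartpt and Vip. Penk was thus next to Pdyn in level among controls and next to Tac1 in the Zfhx3-CKO group.

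**Figure D2:**
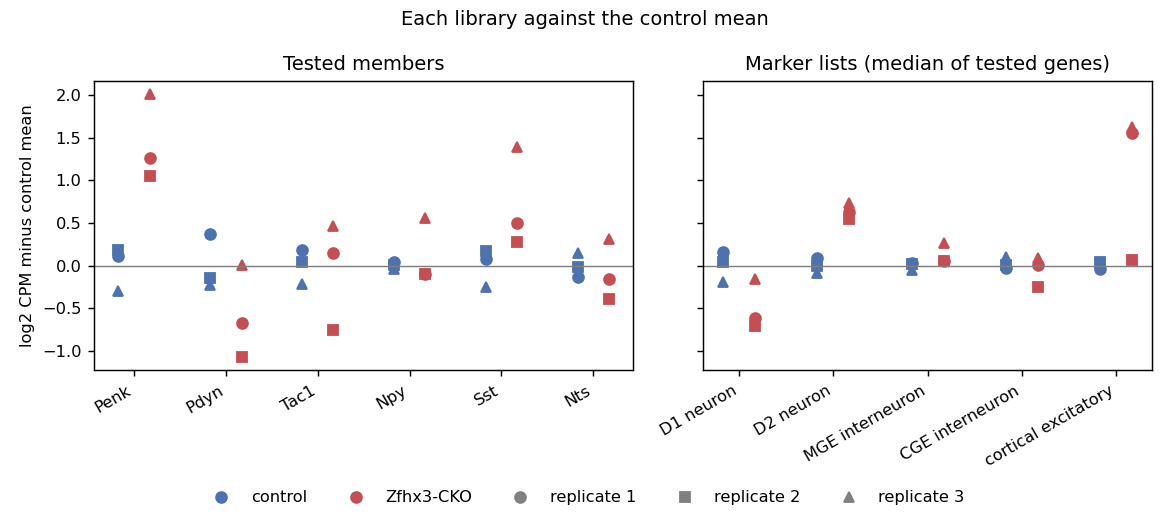
Left, log2 CPM of each library minus the control mean for the 6 tested precursor genes; right, the median of the same quantity over 5 lists of cell type markers (1 point per library, colour for group, shape for replicate number). Zfhx3-CKO library 2 (square) is the lowest and library 3 (triangle) the highest of its group for all 6 genes. The median of the cortical excitatory list is raised in libraries 1 and 3 (1.56 and 1.62) and not in library 2 (0.07). By summed CPM, which is not drawn, library 2 is above the controls for that list too.

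The Zfhx3-CKO libraries differed from each other in one order across the precursors. Library 2 was the lowest of its group in 6 of 6 tested members, against 35.0% of all tested genes, and library 3 was the highest of all 6 libraries in 5 of 6, against 21.3%. Relative to the control mean, library 3 stood at 2.01 for Penk, 1.39 for Sst, 0.56 for Npy, 0.47 for Tac1, 0.31 for Nts and 0.01 for Pdyn on the log2 scale. Library 2 stood at 1.05, 0.28, -0.10, -0.75, -0.39 and -1.07 for the same genes.

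Genes of cortical excitatory neurons, which lie outside the LGE, also differed between these libraries. Their summed level was 354 to 383 CPM among the controls against 603, 440 and 693 CPM in Zfhx3-CKO libraries 1 to 3. Library 2 was thus above the controls on this sum, though not on the list's median. EdgeR called 2 of 16 tested genes higher, Lhx2 and Bhlhe22. At an unadjusted p under 0.05 there were 13 higher and 0 lower, DESeq2 called 4 higher, and the list's median log2 fold change was 1.32. The defining marker Tbr1 stood at 12.7, 15.8 and 8.67 CPM among the controls against 36.2, 8.83 and 72.9 CPM in Zfhx3-CKO libraries 1 to 3. The part of these genes' cells in the precursor values was not tested. Without libraries 1 and 3, the log2 fold change was 1.06 for Penk (adjusted p = 0.0227, edgeR), 0.27 for Sst (adjusted p = 0.379) and -0.10 for Npy. That fit has 1 library in the Zfhx3-CKO arm, whose variation is taken to equal that of the controls, so its p-values rest on the spread of the controls alone. Glial and vascular genes summed to 1449 to 1824 CPM among the controls against 1394 to 1781 CPM among the Zfhx3-CKO libraries. Of 19 tested, edgeR called 1 higher and 0 lower, against 7.35% of all tested genes. DESeq2 called 3 higher and 0 lower, and at an unadjusted p under 0.05 in edgeR there were also 3 higher and 0 lower.

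**Figure D3:**
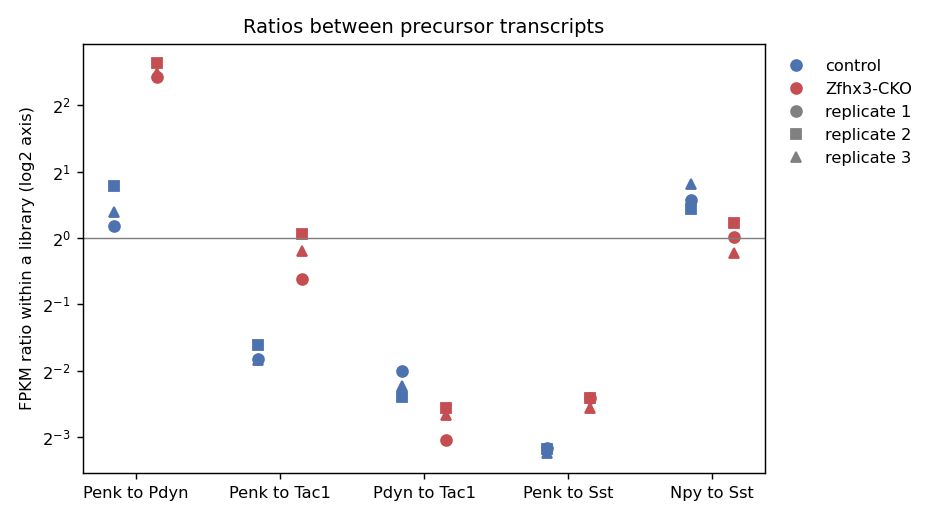
Ratio of the FPKM of 2 precursor genes within the same library on a log2 axis, for 5 pairs (colour for group, shape for replicate number). The Penk to Pdyn ratio lies between 1.14 and 1.73 in the control libraries and between 5.37 and 6.18 in the Zfhx3-CKO libraries.

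A ratio of 2 genes within a library does not depend on the library's total. Ratios of the 6 tested members were examined after their values had been seen, and are given as a description. Penk to Pdyn, the balance of enkephalin to dynorphin precursor, was 1.14, 1.73 and 1.30 in control libraries 1 to 3 and 5.37, 6.18 and 5.59 in Zfhx3-CKO libraries 1 to 3. Among the Zfhx3-CKO libraries Penk alone ranged from 5.87 to 11.4 FPKM and Pdyn alone from 0.950 to 2.04 FPKM, while their ratio kept within a narrower range. The ratio varied more among the control libraries, with a log2 SD of 0.31 against 0.10 in the Zfhx3-CKO libraries. The mean log2 ratio was higher by 2.06 in the Zfhx3-CKO libraries. Penk to Tac1, the balance of enkephalin to substance P precursor, was 0.282, 0.328 and 0.278 in the control libraries and 0.648, 1.05 and 0.875 in the Zfhx3-CKO libraries. Penk to Sst was 0.111, 0.110 and 0.105 against 0.187, 0.188 and 0.169, so the difference in Penk remained when it was set against the other member with groups that did not overlap.

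Pdyn to Tac1, both precursors of D1-type neurons, was 0.248, 0.190 and 0.213 in the control libraries and 0.121, 0.169 and 0.157 in the Zfhx3-CKO libraries. Npy to Sst, both precursors of the same interneuron class, was 1.48, 1.35 and 1.76 against 1.01, 1.17 and 0.852. For both pairs the ratio was lower in every Zfhx3-CKO library than in any control library. Over all 15 pairs, 11 had groups that did not overlap, including 5 of 5 pairs with Penk. Of all pairs of tested genes above 0 FPKM in every library, 30.2% did so. The 15 pairs reuse the same 6 genes, so they are not independent. Most of the 11 contain Penk or Sst, whose groups did not overlap in CPM alone. The count thus largely restates those genes, and the 30.2% is not a matched background for it. A two-sided exact permutation test gave p = 0.1 for each of the 11, its lowest possible value, and 0.136 after Benjamini-Hochberg adjustment over the 15 pairs, so none passed 0.05.

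Genes whose library profile was most like that of a member were found by the root mean square difference of log2 CPM, each gene centred on its own mean over the 6 libraries, among 13234 protein-coding genes of at least 1 CPM. For Penk they were Lhx8 (0.0924), a LIM-homeodomain factor of MGE-derived neurons, Asic2 (0.104), an acid-sensing ion channel subunit, and Kcna3 (0.184), a potassium channel subunit. These values are averages over the 6 libraries, and single libraries can differ by more. The nearest profiles to Pdyn were P2rx2, Gas7 and Kcnab1 (0.0988 to 0.109), those to Tac1 included Hnmt and Fgf12 (0.0720 and 0.0923) and those to Sst were Fam163b, Clgn and Cacna1i (0.0769 to 0.104). Npy and Nts varied by less than 1 log2 unit and were not matched. All these profiles share the same 6 libraries.

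**Figure D4:**
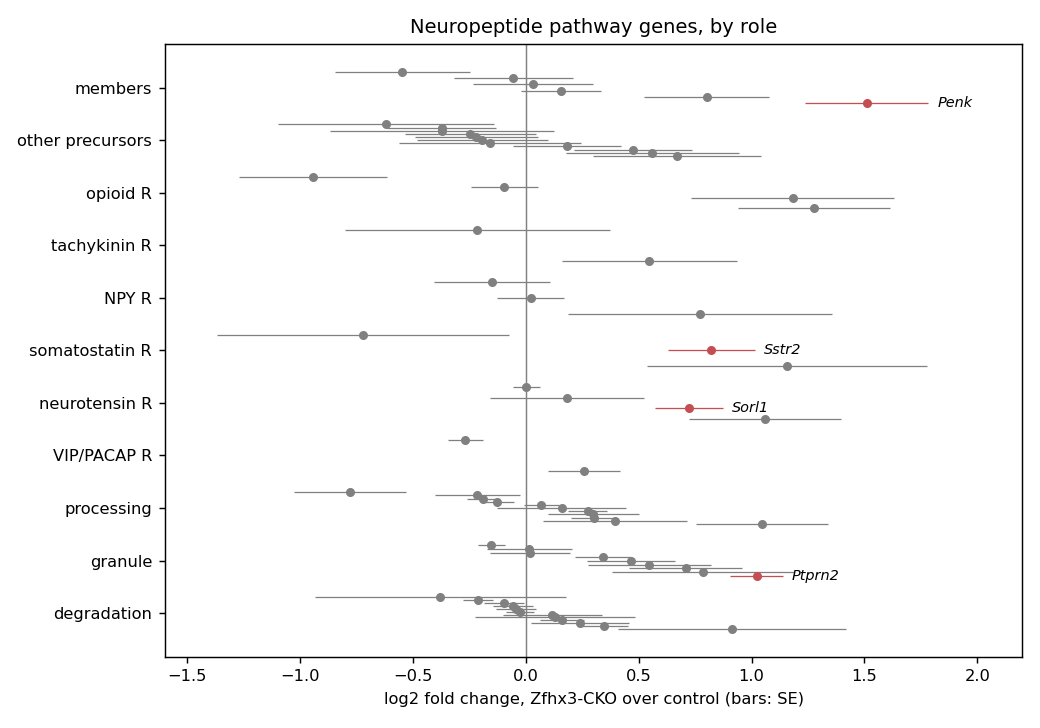
Log2 fold change (Zfhx3-CKO over control, edgeR) with its SE for each tested gene of the peptide system, grouped by role and ordered by value within a role; R stands for receptors. Red points passed the threshold of adjusted p 0.05, and they are Penk (1.51), Sstr2 (0.82), Sorl1 (0.72) and Ptprn2 (1.02).

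The rest of the peptide system was read from lists of receptors, processing enzymes, granule proteins, peptidases and other precursors. Of 90 such genes, 85 were found and 61 tested, of which edgeR called 3 higher, 0 lower and 58 not, with a median log2 fold change of 0.13. Over all tested genes, edgeR called 7.35%. At an unadjusted p under 0.05 there were 13 higher and 6 lower pathway genes, and DESeq2 called 7 higher and 2 lower. Over the whole table DESeq2 called 1011 genes higher and 755 lower. The share of all tested genes with an unadjusted p under 0.05 was not computed. Such counts, here and for every other list, therefore have no background beside them and are a description only. Among receptors 2 of 18 tested genes were called higher, with a median of 0.22.

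Sstr2 encodes a somatostatin receptor that many migrating and young neurons express. It stood at 7.05, 7.41 and 8.10 FPKM in control libraries 1 to 3 and at 16.1, 9.20 and 14.5 FPKM in Zfhx3-CKO libraries 1 to 3, the groups apart but library 2 close to the controls. Sstr2 rose by 0.82 on the log2 scale (SE 0.19, adjusted p = 0.0402, edgeR), a call that 8 of 18 alternatives kept. Among others, it was lost in all 3 limma fits on FPKM (adjusted p = 0.0684 to 0.148), without Zfhx3-CKO library 1 (0.67, adjusted p = 0.129) or without control library 1, 2 or 3 (adjusted p = 0.161, 0.147 and 0.0945), and stood at 0.30 (adjusted p = 0.228) without Zfhx3-CKO libraries 1 and 3. Its span overlaps Slc39a11 on the opposite strand (320 to 433 counts), and the library kit does not mark strand.

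Sorl1, a sorting receptor of the family that binds neurotensin, stood at 5.29, 5.06 and 4.73 FPKM against 8.42, 6.35 and 10.04 FPKM. It rose by 0.72 on the log2 scale (SE 0.15, adjusted p = 0.0270, edgeR), a call also kept in 8 of 18 alternatives. Among others, it was lost in all 3 limma fits on FPKM (adjusted p = 0.0567 to 0.124), without Zfhx3-CKO library 1 (0.72, adjusted p = 0.0915), without control library 1, 2 or 3 (adjusted p = 0.105, 0.115 and 0.0938) and without Zfhx3-CKO libraries 1 and 3 (0.34, adjusted p = 0.0671).

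Of 4 genes of the opioid receptor family, which includes the receptors for the peptides of Penk and Pdyn, edgeR called 0, and 3 had an unadjusted p under 0.05. DESeq2 called Oprm1 lower (-0.94, adjusted p = 0.0383) and Oprk1, the dynorphin receptor gene, higher (1.29, adjusted p = 0.00792). Oprk1 is named after its values were seen, and stood at 0.313, 0.254 and 0.138 FPKM in the control libraries against 0.538, 0.409 and 0.760 FPKM in the Zfhx3-CKO libraries, with an adjusted p of 0.0557 in edgeR. Oprl1, the nociceptin receptor gene, had the highest mean (12.2 ± 1.23 and 11.3 ± 2.27 FPKM, SD, n = 3 each; log2 fold change -0.09, adjusted p = 0.734). The mu opioid receptor gene Oprm1 was measured at 1.78, 1.33 and 0.668 FPKM in the control libraries and at 0.692, 0.525 and 0.746 FPKM in the Zfhx3-CKO libraries (log2 fold change -0.94, SE 0.33, adjusted p = 0.117). Its groups overlapped through control library 3, and its span overlaps Ipcef1 on the opposite strand (84 to 145 counts).

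Of the receptors for Tac1 peptides, Tacr1 stood at 0.890 and 1.29 FPKM and Tacr3 at 0.178 and 0.152 FPKM in the control and Zfhx3-CKO means, and neither passed (adjusted p = 0.411 and 0.854, edgeR). Of those for neuropeptide Y, Npy1r stood at 3.77 and 3.81 FPKM and Npy2r at 1.02 and 0.915 FPKM (adjusted p = 0.952 and 0.759, edgeR). Of those for neurotensin, Ntsr1 is named after its values were seen. It stood at 0.945, 0.897 and 0.846 FPKM in control libraries 1 to 3. In Zfhx3-CKO libraries 1 to 3 it stood at 1.17, 1.47 and 2.94 FPKM (log2 fold change 1.06, adjusted p = 0.0941, edgeR). DESeq2 called Ntsr1 higher (1.07, adjusted p = 0.0248). The receptor gene of PACAP, a peptide related to Vip, Adcyap1r1, stood at 29.8 and 24.7 FPKM (log2 fold change -0.27, adjusted p = 0.0755) and Vipr2 at 1.20 and 1.43 FPKM (adjusted p = 0.346). The cholecystokinin receptor genes Cckar and Cckbr, like Cck, had too few counts to be tested.

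Of 11 precursor processing genes edgeR called 0, and 5 had an unadjusted p under 0.05. DESeq2 called 1, the prohormone convertase gene Pcsk2 (-0.77, adjusted p = 0.0212), named after its values were seen. Cpe, the carboxypeptidase that trims peptide ends, stood at 140 ± 16.1 and 171 ± 14.9 FPKM (SD, n = 3 each; log2 fold change 0.30, SE 0.10, adjusted p = 0.101), and Scg5, the chaperone of prohormone convertase, at 52.8 ± 1.20 and 46.2 ± 3.29 FPKM (log2 fold change -0.19, adjusted p = 0.140). The level of Cpe was thus above that of every precursor of the 9.

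Of 9 granule genes, edgeR called 1 higher and 0 lower, and their median log2 fold change was 0.47. At an unadjusted p under 0.05 there were 4 higher and 1 lower. DESeq2 called 2 higher, Ptprn2 and Vgf (0.72, adjusted p = 0.0442), the latter named after its values were seen. In edgeR, Vgf did not pass (0.71, adjusted p = 0.120). Ptprn2, a transmembrane protein of dense-core granules, stood at 4.78, 4.65 and 3.77 FPKM in control libraries 1 to 3 and at 8.09, 8.86 and 9.77 FPKM in Zfhx3-CKO libraries 1 to 3. Unlike the precursors, it was similar in the 3 Zfhx3-CKO libraries. Ptprn2 rose by 1.02 on the log2 scale (SE 0.12, adjusted p = 0.0024, edgeR), and 17 of 18 alternatives kept the call, the exception being the 2-fold threshold. Its span overlaps 3 genes on the opposite strand, of which Gm10421 had the most counts (325 to 519). Of 12 peptidase genes edgeR called 0, and 2 had an unadjusted p under 0.05. Npepps and Thop1 were the most abundant (adjusted p = 0.543 and 0.0853), and DESeq2 called Thop1, a metallopeptidase that cuts short peptides, higher (0.36, adjusted p = 0.0489).

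Among 32 other neuropeptide precursor genes, 28 were found, 11 were tested and 0 were called by edgeR or DESeq2 or had an unadjusted p under 0.05, with a median log2 fold change of -0.19. The most abundant were Cort, the precursor of the somatostatin-related peptide cortistatin, at 5.03 ± 0.555 and 5.69 ± 1.59 FPKM (SD, n = 3 each; adjusted p = 0.678, edgeR), and Gnrh1, the precursor of gonadotropin-releasing hormone, at 3.47 ± 0.263 and 2.97 ± 0.811 FPKM (adjusted p = 0.658). For Cort library 1 was the highest Zfhx3-CKO library, at 7.42 FPKM, and library 3 the lowest, at 4.28 FPKM, whereas library 3 was the highest for Sst.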

How the data were processed

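RNA-seq of 6 LGE libraries was analysed from the processed tables. Per the labels' protocols, a TruSeq RNA kit, which does not mark strand, was used on 1 ug of total RNA. HISAT2, StringTie, edgeR, bcl2fastq 2.17.1.14, GRCm38.p4 and mm10 appear in the submitters' processing notes; the annotation is not given in the sources here. The deposited counts are whole numbers per gene. The deposited FPKM values were scaled by length and depth by the authors. The full table's log2 fold changes and p-values are the authors' own, from a test its header does not name.

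Counts were tested with edgeR 4.0.16 (R 4.3.3; quasi-likelihood, TMM factors, filterByExpr with minimum count 10, group as the sole term, Benjamini-Hochberg over 16551 genes at 0.05; 13108 genes left out). CPM are counts per library total times TMM factor; log2 CPM used a prior count of 2. Intervals are exact (Clopper-Pearson). Alternatives used limma 3.58.1 on log2(FPKM + 1) or log2(FPKM + 0.1), DESeq2 1.42.0, RLE factors, library totals, other filters, a replicate block, a 2-fold threshold, no X and Y genes, and fewer libraries.

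The members and lists were chosen with earlier results of these data known. Named were the 9 members, Zfhx3, in each pathway list every gene past the threshold and otherwise the 2 of highest mean FPKM, in marker lists called genes and up to 4 of highest CPM, and 3 nearest profiles per member of at least 1 log2 unit span. Some genes that the rule names are not reported here.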

Additional observations from a re-analysis of the deposited data

How the results depend on the processing

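Depth limited Cck, Cartpt and Vip, and the strict filter of 5 CPM in 3 libraries left no value for Nts. Libraries with the same replicate number did not deviate together (correlations of same-numbered libraries -0.03, -0.08 and -0.22), so the replicate block was an alternative only. The number of precursor genes called, 1, became 0 with the replicate block (Penk 1.46, adjusted p = 0.0742, edgeR), the 2-fold threshold or unfiltered FPKM in limma. It became 2 with DESeq2 or no low-count filter, and 0 to 2 with 1 library left out. Wherever these counts reached 2, the genes were Penk and Sst, both higher. With Zfhx3-CKO library 2 as the only one of its group, the log2 fold change was 1.06 for Penk, 0.27 for Sst and -0.76 for Tac1. Genes called higher, 640, numbered 34 (2-fold threshold), 1011 (DESeq2), 243 (limma, unfiltered), 1075 (no low-count filter), 176 (replicate block) and 156 to 1082 with 1 library left out. Genes called lower, 576, numbered 51 (2-fold threshold), 268 (limma, unfiltered), 136 (replicate block) and 131 to 1014. Pathway genes called, 3, numbered 0 (2-fold threshold), 9 (DESeq2), 1 (each of 3 limma fits), 11 (no low-count filter) and 1 to 13; the replicate block ended the calls of Sstr2 (0.79, adjusted p = 0.0974) and Sorl1 (0.70, adjusted p = 0.0814). Zfhx3 also passed with no low-count filter (-0.36, adjusted p = 0.0308) and ranged from -0.50 to -0.29 with 1 library left out. Signs turned for 3 genes: Tac1 (-0.0489 and -0.0376 with limma at pseudocounts 0.1 and 1, filtered or not at the latter, -0.0375 with the replicate block, -0.76 without Zfhx3-CKO libraries 1 and 3, -0.24 to 0.31 with 1 library left out), Npy (-0.10 without Zfhx3-CKO libraries 1 and 3, -0.10 to 0.27 with 1 left out) and Nts (0.10 at most with 1 left out). The cause was not tested.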

Other observations

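Nos1 and Chat were singled out after their values were seen, as genes of other striatal interneurons. Nos1, the neuronal nitric oxide synthase gene, which mature Sst and Npy interneurons also express, stood at 4.65, 3.09 and 1.79 CPM in control libraries 1 to 3 and at 7.34, 3.12 and 15.5 CPM in Zfhx3-CKO libraries 1 to 3. The highest library was the one in which Sst and Npy were highest. Its groups overlapped and the log2 fold change of 1.44 (SE 0.55) did not pass (adjusted p = 0.145, edgeR). Chat, the choline acetyltransferase gene of cholinergic interneurons, stood at 0.835, 1.13 and 0.478 CPM in the control libraries and at 1.71, 0.688 and 3.38 CPM in the others (adjusted p = 0.213, edgeR, at 1.24 on the log2 scale), with the same library highest.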
